A study of Homo sapiens with 6 samples.

Results

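The UDP-glucuronosyltransferase (UGT) genes and UGDH were followed in HepG2, an established human liver carcinoma line, after 48 h in 10 µM oridonin, an ent-kaurane diterpenoid of Isodon rubescens, or in 0.1% DMSO. The 8 symbols were listed by function, UGT1A1, UGT1A6, UGT2B4, UGT2B7, UGT2B10, UGT2B11, UGT2B15 and UGDH, and all 8 had a row among the 60504 genes of the count table. Of these, 7 also stood under their symbol among the 18404 genes of the log2 FPKM table, and UGT2B15 was found in the count table by its Ensembl ID. There were 3 oridonin libraries and 3 DMSO libraries, the cells grew attached in DMEM on 6-well plates, and total RNA was sequenced. Whether the oridonin wells also held DMSO, and whether the wells came from separate cultures, is not given in the labels, so p-values measure only the spread between these libraries.

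Glucuronidation joins glucuronic acid to drugs, steroids, bile acids and bilirubin, which makes them soluble enough to leave in bile or urine. UGDH, UDP-glucose 6-dehydrogenase, makes the donor UDP-glucuronate in the cytosol from UDP-glucose, which UGP2 makes from the glucose 1-phosphate that PGM1 supplies. The donor then enters the endoplasmic reticulum, where the UGT enzymes face the lumen. The UGT1A enzymes come from a single locus in which each gene has its own first exon and all share the exons that follow, whereas the UGT2B enzymes come from separate, closely similar genes.

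Total counts ran from 27674586 to 30739574 in oridonin libraries and from 22250202 to 29352396 in DMSO libraries. Of 15116 genes tested by edgeR's quasi-likelihood test, 41.9% had an adjusted p under 0.05, 3118 of them higher with oridonin (20.6% of those tested) and 3214 lower (21.3%). With total-count scaling in place of the trimmed mean of M values (TMM), the split was 4487 higher and 2359 lower, an upward share of 65.5% in place of 49.2%. Levels in CPM are counts relative to the library total with TMM factors applied. The groups' CPM did not overlap in 51.6% of tested genes, 26.0% with oridonin higher. All 10 hepatocyte markers on the list were detected, with a summed level of 14862 to 16990 CPM in oridonin libraries and 25088 to 28388 CPM in DMSO libraries, and 6 of them fell while 1 rose. Markers of other cell types were also present. For 13 B and plasma cell markers, of which 12 were detected and MS4A1 was at 0, the summed level was 42.9, 99.5 and 100.4 CPM in oridonin libraries 1 to 3 and 4.65, 14.2 and 21.9 CPM in DMSO libraries 1 to 3. The 15 gut epithelial markers, all detected, summed to 310.0 to 319 CPM in oridonin libraries and 384 to 402 CPM in DMSO libraries, nearly all of it VIL1. Of 10 tested, 8 rose and 1 fell. Most of the 8, such as CDX1 and PIGR, passed the filter on low values only through their oridonin libraries. The 8 rises are therefore a description. Without VIL1, a split chosen after the values were seen, the gut markers summed to 13.6, 21.3 and 21.6 CPM in oridonin libraries and 2.32, 7.87 and 7.08 CPM in DMSO libraries. Of 8 kidney tubule markers, 5 were detected, at a summed 0.195 to 0.691 CPM in oridonin libraries and 0.456 to 0.803 CPM in DMSO libraries, with SLC22A6, SLC22A8 and UMOD at 0. The 12 other leukocyte and stromal markers, all detected and led by LYZ, summed to 442 to 472 CPM in oridonin libraries and 694 to 729 CPM in DMSO libraries, and of 7 tested 3 rose and 1, LYZ, fell. COL1A1 and COL1A2, among the 7, would not have passed the filter on low values without their oridonin libraries, so the 3 rises are a description too. Without LYZ, again a split chosen after the values were seen, the leukocyte and stromal markers summed to 22.6, 24.4 and 23.9 CPM in oridonin libraries and 17.0, 18.1 and 16.8 CPM in DMSO libraries.

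Of the 8 listed genes, UGT1A1, UGT1A6, UGT2B7 and UGDH rose with oridonin, and UGT2B10 was tested but not called. UGT2B4, UGT2B11 and UGT2B15 had too few counts to pass the filter on low values. UGT1A6 passed that filter only through its oridonin libraries, so the 4 calls among 5 tested genes are a description and are not set against the 20.6% of all tested genes that rose. In bulk libraries such as these, fewer cells of a type and less RNA per cell cannot be told apart.

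**Figure D1:**
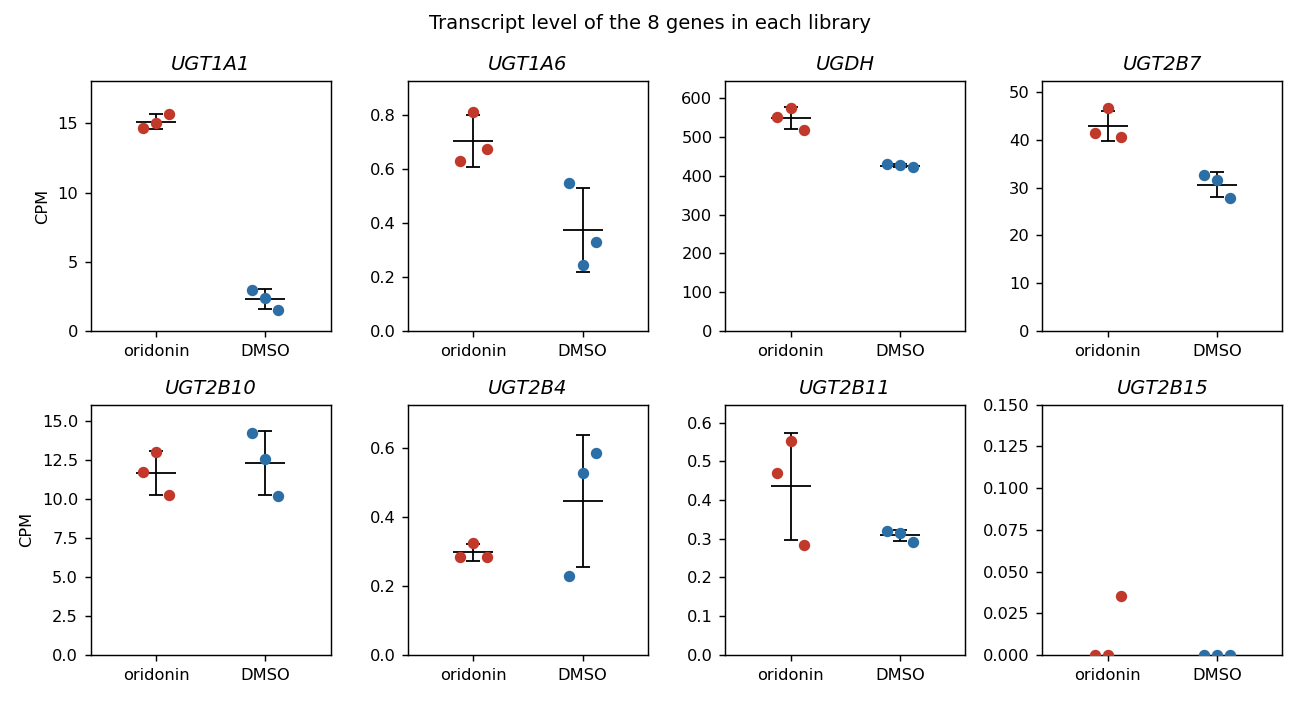
Level of each of the 8 genes in CPM with TMM factors, in 3 oridonin libraries and 3 DMSO libraries. Points are libraries, and the dash and whiskers are the mean and SD, left out for UGT2B15 with its single count. UGT1A1, UGT1A6, UGDH and UGT2B7 show oridonin points all above the DMSO points, and the other genes overlap.

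UGT1A1, which encodes the enzyme that conjugates bilirubin, showed the largest rise of the 5 tested genes. It had 14.6, 15.0 and 15.7 CPM in oridonin libraries 1 to 3, against 3.01, 2.39 and 1.53 CPM in DMSO libraries 1 to 3. Each oridonin library was thus far above each DMSO library, and the oridonin libraries lay closer together than the DMSO libraries. The log2 fold change was 2.73 ± 0.15 (SE, n = 3 per group), a 6.64-fold difference with an edgeR adjusted p of 9.52e-10. A rise of at least this size was called in 27 of the 15116 genes tested, which is 0.179%, while 3.12% were called with a rise of at least 2-fold. The gene is ENSG00000241635, on hg38 chromosome 2 from 233760248 to 233773299, plus strand. Gut epithelium expresses UGT1A genes as well, and the summed level of the gut markers other than VIL1 was higher in each oridonin library than in any DMSO library. Not every such marker was higher: FABP2 had 0.314, 0.487 and 0.213 CPM in oridonin libraries and 0.547, 0.421 and 0.511 CPM in DMSO libraries. CDX2, CDH17 and GUCA2A overlapped between the groups, and SI had 0, 5 and 0 counts in oridonin libraries and 1, 0 and 0 counts in DMSO libraries. The part of these markers in the result was not tested. UGT1A8, a gut form that liver lacks, had 0 counts in all 6 libraries. UGT1A10, another such form, had 1, 0 and 1 counts in oridonin libraries and 0 in each DMSO library. UGT2B17, abundant in gut, also had 1, 0 and 1 counts in oridonin libraries and 0 in each DMSO library.

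The bases around the start of UGT1A1 and of its neighbour UGT1A3 are shown because the first exon sets each UGT1A gene apart. They are RefSeq windows on GRCh38.p14, from 250 bases before to 50 bases after the gene's start, plus strand, at chr2:233760020-233760319 for UGT1A1 and chr2:233728792-233729091 for UGT1A3. Capitals mark matches on either strand to 3 motifs: GCGTG, the core bound by AHR with ARNT, TGACNNNGC, the core of the antioxidant response element bound by NRF2, and AGTTCA, an element of nuclear receptor sites.
UGT1A1: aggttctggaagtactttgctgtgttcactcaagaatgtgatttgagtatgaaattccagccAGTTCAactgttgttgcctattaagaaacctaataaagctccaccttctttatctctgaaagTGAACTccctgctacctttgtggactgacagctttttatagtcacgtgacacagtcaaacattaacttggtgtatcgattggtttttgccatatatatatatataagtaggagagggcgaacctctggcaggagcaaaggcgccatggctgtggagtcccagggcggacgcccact
UGT1A3: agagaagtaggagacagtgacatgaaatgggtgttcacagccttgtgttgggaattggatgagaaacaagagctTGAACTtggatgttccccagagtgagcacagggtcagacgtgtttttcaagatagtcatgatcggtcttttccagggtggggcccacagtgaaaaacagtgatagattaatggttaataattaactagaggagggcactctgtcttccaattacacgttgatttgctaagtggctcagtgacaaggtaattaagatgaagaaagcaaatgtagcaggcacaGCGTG
In the UGT1A1 window AGTTCA was found at -188 on the plus strand and at -126 on the minus strand, counted from the start, and neither GCGTG nor TGACNNNGC was found. The UGT1A3 window held AGTTCA at -176 on the minus strand and GCGTG at 45. No match overlapped another. Of 35116 windows of this length in the table, 36.5% held GCGTG, 13.3% TGACNNNGC and 10.4% AGTTCA. A match is a description of letters, and the known distal enhancer of UGT1A1 lies outside this window.

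The UGT1A genes share sequence, which limits what a count of a single one means. In the GENCODE v29 annotation of GRCh38, exon 1 of UGT1A1 (chromosome 2, 233760248 to 233761151) belongs to that gene alone, while exons 2, 3 and 4 are identical in all 9 UGT1A genes and exon 5 overlaps an exon of every one. Of 4467 exonic bases of UGT1A1, 2240 (50.1%) are covered by no other gene, and of 5180 in UGT1A6, 1842 (35.6%). How the authors' counting treated reads in shared exons is not given. Summed over the 9 genes, so that it no longer matters to which of them a read was given, there were 514, 511 and 493 counts in oridonin libraries and 84, 78 and 57 counts in DMSO libraries. Any reads dropped as ambiguous are missing from this sum. This summed level was 16.7 ± 0.682 CPM with oridonin and 2.88 ± 0.882 CPM with DMSO (SD, n = 3 each). The difference was 2.56 ± 0.14 on the log2 scale (SE), with an edgeR adjusted p of 1.13e-09. UGT1A1 made up 89.9% to 90.7% of the summed counts in oridonin libraries and 73.7% to 87.2% in DMSO libraries.

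Beside UGT1A1, the weakly expressed UGT1A genes with more than a few counts also had more of them in oridonin libraries. UGT1A3, whose enzyme conjugates bile acids and estrogens, had 22, 18 and 17 counts in oridonin libraries and 5, 0 and 3 counts in DMSO libraries. It was not in the log2 FPKM table and passed the filter only through its oridonin libraries; it rose by 2.55 ± 0.54 on the log2 scale (SE, edgeR adjusted p = 0.00112), at 3.44 without DMSO replicate 1 and 1.91 without DMSO replicate 2. UGT1A6 (ENSG00000167165, hg38 chromosome 2, 233691607 to 233773300, plus strand), the form that prefers small planar phenols, had 20, 25 and 19 counts in oridonin libraries and 12, 7 and 9 counts in DMSO libraries, with no overlap between the groups. UGT1A6 rose by 0.95 ± 0.35 on the log2 scale (SE, edgeR adjusted p = 0.0372). That call was lost in 8 of 12 other settings, at an adjusted p of 0.192 with DESeq2, 0.0551 without the filter, 0.102 with limma on log2 FPKM and 0.0517, 0.133, 0.0668, 0.184 and 0.102 without oridonin replicates 1, 2 and 3 and without DMSO replicates 2 and 3. UGT1A6 spans the whole of UGT1A1 on the same strand. UGT1A9 was not tested, with 4, 5 and 11 counts in oridonin libraries and 0, 1 and 2 counts in DMSO libraries, a ratio of summed counts of 5.71 (95% exact interval 1.69 to 30.0, counting error only). The pseudogene UGT1A2P, which lies between UGT1A3 and UGT1A1, had 4, 5 and 4 counts in oridonin libraries and 0 in each DMSO library. UGT1A4, UGT1A5 and UGT1A7 had 0 or 1 count in every library.

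**Figure D2:**
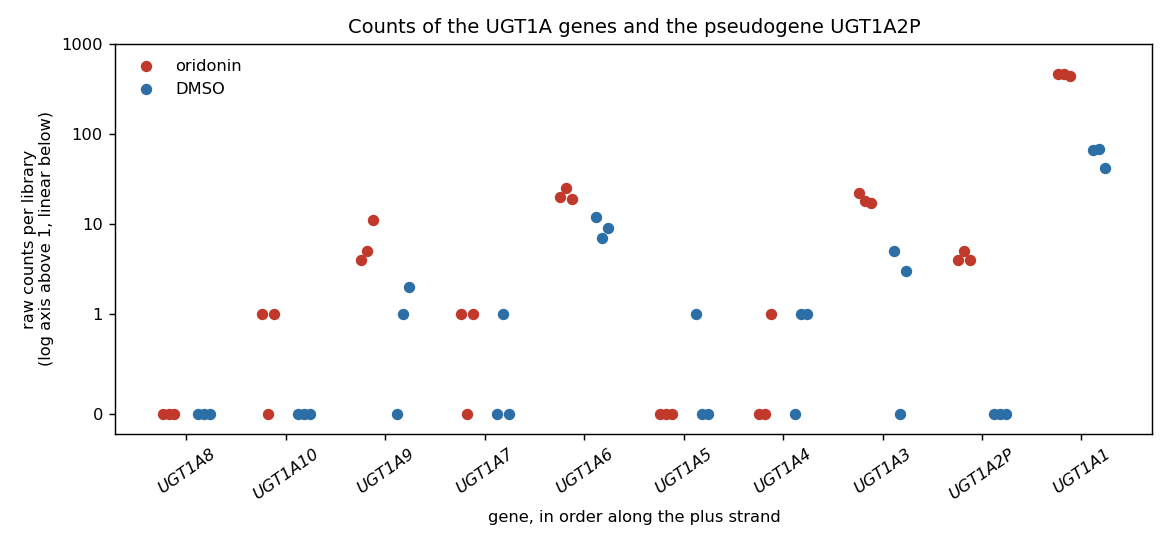
Raw counts per library of the UGT1A genes and the pseudogene UGT1A2P, in their order along the plus strand, on an axis that is logarithmic above 1. Oridonin points lie left of DMSO points for each gene. UGT1A1 stands at 443 to 466 counts with oridonin and 42 to 68 counts with DMSO, and UGT1A3, UGT1A6, UGT1A9 and UGT1A2P also have oridonin points above all DMSO points.

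UGT2B7, the main hepatic enzyme for morphine and a broad conjugator of steroids and fatty acids, rose, while its paralog UGT2B10, which acts on tertiary amines and nicotine, was not called. UGT2B7 (ENSG00000171234, hg38 chromosome 4, 69051363 to 69112987, plus strand) had 41.4, 46.5 and 40.6 CPM in oridonin libraries and 32.6, 31.5 and 27.7 CPM in DMSO libraries. The groups did not overlap, and the log2 fold change was 0.49 ± 0.07 (SE, n = 3 per group, edgeR adjusted p = 4.54e-05). UGT2B10 (ENSG00000109181, hg38 chromosome 4, 68815993 to 68831196, plus strand) had 11.7, 13.0 and 10.2 CPM in oridonin libraries and 14.2, 12.6 and 10.2 CPM in DMSO libraries. Its groups overlapped, with a log2 fold change of -0.07 ± 0.12 (SE, edgeR adjusted p = 0.672). The log2 ratio of UGT2B7 to UGT2B10 counts within a library averaged 1.88 ± 0.0915 with oridonin and 1.32 ± 0.125 with DMSO (SD, n = 3 each). This ratio was higher in each oridonin library than in any DMSO library, at the smallest p that 3 against 3 libraries allow (exact two-sided permutation p = 0.1, adjusted p = 0.1 over 3 ratios computed). UGT2A3, a further enzyme of the UGT2 family outside the listed 8, had a log2 fold change of -0.04 ± 0.07 (SE, edgeR adjusted p = 0.652).

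The start windows of UGT2B7 and UGT2B10 are set side by side because UGT2B7 was called and UGT2B10 was not. They are RefSeq windows on GRCh38.p14, plus strand, at chr4:69096224-69096523 for UGT2B7 and chr4:68815744-68816043 for UGT2B10, with capitals as above. The RefSeq start of UGT2B7 lies inside the span deposited for that gene.
UGT2B7: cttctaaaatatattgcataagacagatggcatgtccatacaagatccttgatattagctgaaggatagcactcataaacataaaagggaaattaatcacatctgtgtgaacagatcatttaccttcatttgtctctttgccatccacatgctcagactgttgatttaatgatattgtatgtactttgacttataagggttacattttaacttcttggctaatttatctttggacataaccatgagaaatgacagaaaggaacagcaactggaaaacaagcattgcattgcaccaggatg
UGT2B10: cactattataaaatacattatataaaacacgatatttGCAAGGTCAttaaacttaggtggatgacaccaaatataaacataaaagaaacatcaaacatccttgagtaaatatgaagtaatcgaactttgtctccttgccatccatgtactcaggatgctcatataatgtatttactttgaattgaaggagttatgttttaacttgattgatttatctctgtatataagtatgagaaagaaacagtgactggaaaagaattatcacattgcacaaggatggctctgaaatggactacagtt
The UGT2B7 window held none of the 3 motifs, and the UGT2B10 window held TGACNNNGC at -213 on the minus strand.

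The other listed UGT2B genes were near the limit of detection, where 3 counts correspond to 0.0942 to 0.106 CPM in oridonin libraries and 0.105 to 0.137 CPM in DMSO libraries. UGT2B4 (ENSG00000156096, hg38 chromosome 4, 69480165 to 69526014, minus strand), a bile acid conjugator, had 9, 10 and 8 counts in oridonin libraries and 5, 15 and 16 counts in DMSO libraries. With the filter dropped it stood at -0.60 ± 0.45 on the log2 scale (SE), at an edgeR adjusted p of 0.44. UGT2B11 (ENSG00000213759, hg38 chromosome 4, 69004618 to 69214731, minus strand) had 15, 17 and 8 counts in oridonin libraries and 7, 9 and 8 counts in DMSO libraries, at 0.52 ± 0.45 without the filter (SE, edgeR adjusted p = 0.523). Both genes overlapped between the groups, and no difference was detectable at this depth. UGT2B15 (ENSG00000196620, GENCODE v29 chromosome 4, 68646630 to 68670628, minus strand), an androgen-conjugating enzyme, had a single count in oridonin library 3 and 0 in the other libraries, and UGT2B28 had 0 counts with oridonin and 1, 1 and 0 counts with DMSO. UGT2A1 and UGT2A2 had 0 counts throughout, and UGT3A1, UGT3A2 and UGT8 at most 2 counts in any library. Summed over the UGT2B genes, the level was 55.3 ± 4.63 CPM with oridonin and 43.7 ± 4.47 CPM with DMSO (SD, n = 3 each), a log2 fold change of 0.34 ± 0.08 (SE, edgeR adjusted p = 0.00232). The paralogs can exchange short reads: of all 50-base words in their GENCODE v29 transcripts, 5.38% for UGT2B7, 30.9% for UGT2B10 and 36.4% for UGT2B11 also occur in another UGT2 gene, and at 100 bases 0%, 6.27% and 8.26%. In the deposited annotation UGT2B11 also spans the whole of UGT2B7 on the opposite strand.

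Per gene length, UGDH stood above all UGT genes, and among these UGT2A3 and UGT2B7 led. The deposited log2 FPKM of UGDH was 7.09, 7.16 and 7.02 in oridonin libraries and 6.71 in each DMSO library. UGT2B7 followed at 4.19, 4.37 and 4.18 in oridonin libraries and 3.83, 3.79 and 3.62 in DMSO libraries, and UGT2A3 at 4.12, 4.26 and 4.14 in oridonin libraries and 4.25, 4.28 and 4.05 in DMSO libraries. With oridonin UGT2B7 lay above UGT2A3 within every library, though their ranges overlapped. With DMSO UGT2A3 lay above UGT2B7 in every library. UGT2B10 came next at 2.42 to 2.76 in oridonin libraries and 2.40 to 2.86 in DMSO libraries, then UGT1A1 at 1.71 to 1.83 in oridonin libraries and -1.54 to -0.59 in DMSO libraries. The length used for UGT1A1 was 4467 bases, of which only 2240 are its own. Its place with oridonin may thus depend on how shared reads were counted. In CPM, UGT1A1 averaged 15.1 and UGT2B10 11.7 with oridonin, against 2.31 and 12.3 with DMSO. UGT1A6, UGT2B4 and UGT2B11 all lay between -3.14 and -2.16 with oridonin and between -4.41 and -2.09 with DMSO, with overlapping ranges, except that with DMSO UGT1A6 lay below UGT2B11.

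As a share of the summed counts per length of 7 UGT genes, UGT1A1 made up 7.26 ± 0.593% with oridonin and 1.30 ± 0.306% with DMSO (SD, n = 3 each). The length of UGT1A1, with its shared exons, limits this share in the same way. UGT2B7 made up 40.5 ± 0.459% with oridonin and 34.5 ± 0.652% with DMSO. UGT2A3 made up 38.4 ± 0.647% with oridonin and 47.1 ± 1.05% with DMSO, and UGT2B10 12.9 ± 0.853% with oridonin and 16.1 ± 1.21% with DMSO. None of these 4 shares overlapped between the groups, each at the smallest exact permutation p possible (two-sided, p = 0.1, adjusted p = 0.14 over 7 shares). The same held for the small share of UGT1A6, 0.290 ± 0.0231% with oridonin and 0.183 ± 0.0673% with DMSO, whereas UGT2B4 and UGT2B11 overlapped. UGT2A3 and UGT2B10 thus had lower shares, while their own levels did not pass the test. The UGT2B7 share turned on UGT2A3 being counted: over the listed genes alone its difference was 0.599 percentage points (exact permutation p = 0.7), against 6.03 over all 7. The same change of denominator moved the difference of UGT1A1 to 9.35 points, against 5.96, and that of UGT2B10 to -9.60 points, against -3.27. With CPM in place of counts per length, the difference of UGT1A1 was 9.81 points.

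**Figure D3:**
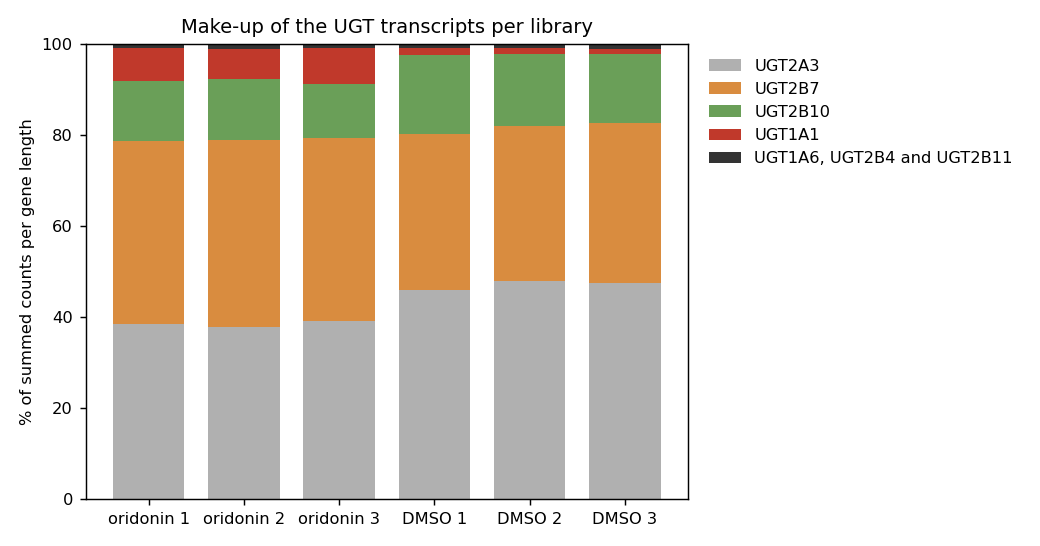
Share of each UGT gene in the summed counts per gene length of 7 UGT genes, in percent, for 3 oridonin and 3 DMSO libraries. UGT1A1 fills 6.70% to 7.88% of each oridonin bar and 0.986% to 1.60% of each DMSO bar, and UGT2A3 37.8% to 39.1% of each oridonin bar and 45.9% to 47.9% of each DMSO bar.

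UGDH, the enzyme that makes UDP-glucuronate, rose by a smaller factor from a high level. It had 552, 575 and 518 CPM in oridonin libraries and 429, 427 and 422 CPM in DMSO libraries, without overlap. The log2 fold change was 0.36 ± 0.05 (SE, n = 3 per group), a 1.29-fold difference with an edgeR adjusted p of 1.29e-05. UGDH is ENSG00000109814 on hg38 chromosome 4, 39498755 to 39528311, minus strand. Of its 4045 exonic bases, 92.8% are covered by no other gene, and the antisense gene UGDH-AS1 had only 30, 27 and 27 counts in oridonin libraries and 21, 22 and 29 counts in DMSO libraries, beside at least 9413 counts of UGDH in each. The window around its start (RefSeq, GRCh38.p14, minus strand, chr4:39527390-39527689) is shown as that of the listed gene outside the UGT family, with capitals as above. The RefSeq start lies inside the span deposited for UGDH.
UGDH: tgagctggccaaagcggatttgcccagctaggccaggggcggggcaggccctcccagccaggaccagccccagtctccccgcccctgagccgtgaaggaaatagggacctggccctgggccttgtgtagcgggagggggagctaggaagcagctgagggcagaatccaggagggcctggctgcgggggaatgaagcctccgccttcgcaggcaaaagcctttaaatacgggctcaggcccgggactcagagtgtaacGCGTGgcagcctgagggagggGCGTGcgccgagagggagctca
It held GCGTG at 7 and at 28, both past the start and on the gene's strand, and none of the other motifs.

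PGM1 and UGP2, which act just before UGDH, fell. Of 14 genes of UDP-glucuronate supply, transport and turnover, all tested, 1 rose, 6 fell and 7 were not called (median log2 fold change -0.11, against 0.01 over all tested genes). The 7 calls among 14 genes are near the 41.9% called over all tested genes, made up of 20.6% that rose and 21.3% that fell. PGM1, which makes glucose 1-phosphate, had 56.3, 52.3 and 53.2 CPM in oridonin libraries and 87.2, 91.9 and 86.0 CPM in DMSO libraries. Its groups were well apart, at a log2 fold change of -0.71 ± 0.05 (SE, edgeR adjusted p = 2.17e-08). UGP2, which makes UDP-glucose, had 115, 122 and 114 CPM in oridonin libraries and 165, 162 and 151 CPM in DMSO libraries, again without overlap, and fell by 0.44 on the log2 scale (SE 0.05, edgeR adjusted p = 2.77e-06). The hexokinases split: HK1 averaged 18.5 CPM with oridonin and 8.78 CPM with DMSO and rose (log2 fold change 1.07 ± 0.10, SE), whereas HK2 averaged 412 CPM with oridonin and 628 CPM with DMSO and fell by 0.61. SLC35D1, which carries UDP-glucuronate into the endoplasmic reticulum, fell by 0.29 (edgeR adjusted p = 0.00149), and GUSB, the beta-glucuronidase that undoes the conjugation, by 0.21 (edgeR adjusted p = 0.00507). SLC35D1 and GUSB were named for their role after their values were seen, and GUSB was not called with total-count scaling. GPI, at -0.09, did not pass the test (edgeR adjusted p = 0.156). UDP-glucuronate is also used in proteoglycan and hyaluronan synthesis, for which 16 genes were listed. Some of their enzymes, CSGALNACT2 and EXTL3 among them, add other sugars. Of the 16 genes, 13 were tested, and 5 rose, 3 fell and 5 were not called (median -0.04), beside 20.6% higher and 21.3% lower over all tested genes. Among those that rose were CSGALNACT2 and CHPF2, which act in chondroitin synthesis, at 0.71 and 0.66, B3GAT3, which adds glucuronate to the linker of proteoglycans, at 0.53, and EXTL3, which starts heparan sulfate chains, at 0.29.

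**Figure D4:**
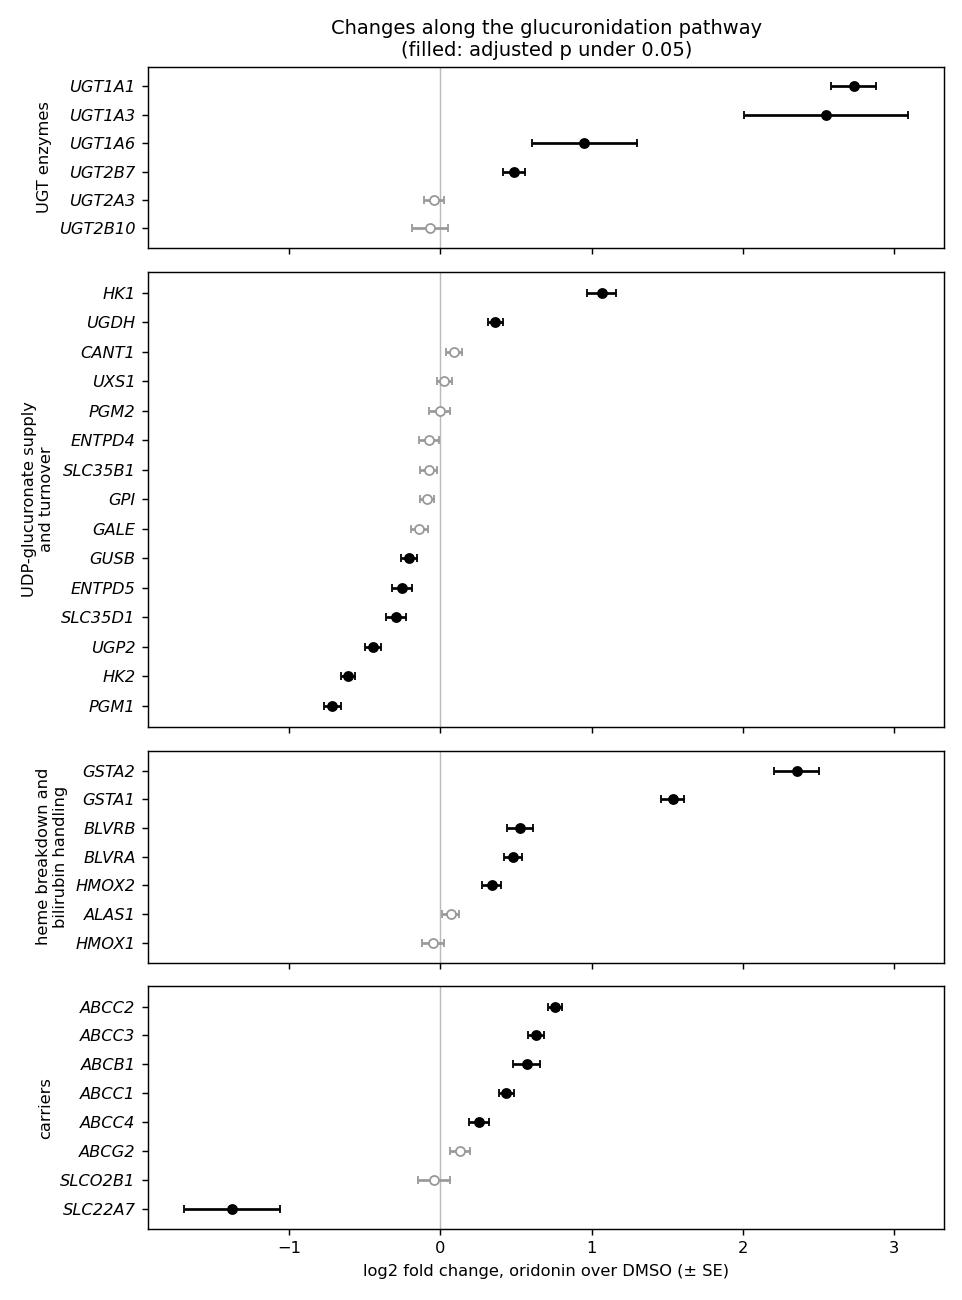
Log2 fold change, oridonin over DMSO, with its SE, for every tested gene of 4 groups: UGT enzymes, UDP-glucuronate supply and turnover with UGDH, heme breakdown and bilirubin handling, and carriers. Filled points have an edgeR adjusted p under 0.05. UGT1A1 stands at 2.73 and UGDH at 0.36, while PGM1 and UGP2 stand at -0.71 and -0.44.

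Bilirubin, the best known substrate of UGT1A1, comes from heme by way of heme oxygenase and biliverdin reductase. Of 7 listed genes, which beside this route hold ALAS1 of heme synthesis and GSTA1 and GSTA2 of bilirubin binding, all were tested, and 5 rose and none fell (median log2 fold change 0.48), where 20.6% of all tested genes rose. The biliverdin reductases rose: BLVRA stood at 78.6 ± 4.83 CPM with oridonin and 56.4 ± 2.65 CPM with DMSO, and BLVRB at 42.8 ± 4.05 CPM with oridonin and 29.7 ± 3.31 CPM with DMSO (SD, n = 3 each). GSTA2 and GSTA1, glutathione transferases that also bind bilirubin in hepatocytes, rose by log2 fold changes of 2.35 ± 0.15 and 1.53 ± 0.07 (SE), each uncertain as near-identical copies may exchange reads. HMOX2, the constitutive heme oxygenase, named after its values were seen, rose by 0.34. HMOX1, the inducible one, had 23.4, 24.2 and 25.5 CPM in oridonin libraries and 27.0, 25.0 and 23.6 CPM in DMSO libraries, and did not pass the test (log2 fold change -0.05 ± 0.07, SE, edgeR adjusted p = 0.608, with a log2 fold change of 0.03 under total-count scaling).

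ABCC2 and ABCC3, the main exporters of glucuronides from hepatocytes, rose. Of 10 listed carriers, 8 were tested, and 5 rose, 1 fell and 2 were not called (median log2 fold change 0.35), beside the same 20.6% higher and 21.3% lower over all tested genes. ABCC2, which exports conjugated bilirubin into bile, stood at 458 ± 23.6 CPM with oridonin and 271 ± 1.22 CPM with DMSO, and ABCC3, its counterpart on the blood side, at 134 ± 8.23 CPM with oridonin and 86.4 ± 2.63 CPM with DMSO (SD, n = 3 each). Both rose, at edgeR adjusted p = 3.12e-09 and 9.44e-08, and so did the exporters ABCB1 and ABCC1, by 0.57 and 0.44 on the log2 scale. ABCG2, at 0.13, was not called (edgeR adjusted p = 0.117), except with total-count scaling (adjusted p = 0.0149). The gene called lower, SLC22A7, an uptake carrier chosen after its values were seen, had 0.427 ± 0.124 CPM with oridonin and 1.12 ± 0.282 CPM with DMSO (SD, n = 3 each, edgeR adjusted p = 0.00203). SLC22A7 passed the filter on low values only through its DMSO libraries, so that call is a description. The hepatic uptake carriers SLCO1B1 and SLCO1B3 had 0 counts in every oridonin library, and in DMSO libraries 0 throughout for SLCO1B1 and 1, 2 and 2 for SLCO1B3.

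UGT1A1 is a known target of AHR, NRF2, PXR (NR1I2) and CAR (NR1I3). Of 20 other targets of these receptors, 15 were tested, and 11 rose, none fell and 4 were not called (median log2 fold change 0.89, against 0.01 over all tested genes, of which 20.6% rose). The NRF2 targets TXNRD1 and AKR1B10 rose by 1.45 ± 0.05 and 1.48 ± 0.05, and the AHR target CYP1A1 by 1.29 ± 0.07 (SE). EPHX1, microsomal epoxide hydrolase, averaged 185 CPM with oridonin and 86.2 CPM with DMSO. ALAS1, which starts heme synthesis, was not called, at 0.07 (edgeR adjusted p = 0.366; called with total-count scaling at an adjusted p of 0.0398). The lists were chosen with earlier results of these libraries known, so their direction is no independent evidence. Of the transcription factors themselves and their partners, 22 of 23 were tested, 5 rose, 9 fell and 8 were not called (median -0.11). Over all tested genes 20.6% rose, so the 5 rises are near the background, and 21.3% fell. Among the 5 is CDX2, also on the gut list, with 23, 11 and 27 counts in oridonin libraries and 1, 12 and 4 counts in DMSO libraries, which overlapped. CDX2 passed the filter on low values only through its oridonin libraries. AHR averaged 102 CPM with oridonin and 73.5 CPM with DMSO, and BACH1, a repressor at NRF2 sites, 83.2 CPM with oridonin and 63.3 CPM with DMSO. Both rose, by 0.47 ± 0.05 and 0.39 ± 0.05 on the log2 scale (SE). NR1H4, the bile acid receptor FXR, and FOXA1, a liver pioneer factor, fell by 1.18 and 0.61 on the log2 scale. Named for their role after their values were seen, NR1I2 rose by 0.43, KEAP1, the NRF2 inhibitor, rose by 0.37 and NFE2L2, the gene of NRF2, fell by 0.45. HNF4A did not pass the test, at -0.04, and had the opposite sign with total-count scaling.

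Across the 6 libraries, the protein-coding genes of at least 10 CPM whose log2 CPM followed UGDH most closely were SUSD6, OSBPL3 and NDFIP1 (Pearson r = 0.99815, 0.99811 and 0.99785), out of 9015 compared. For UGT2B7, the listed UGT with the most counts, they were TACO1, CRYZ and TIMMDC1 (r = 0.99856, 0.99743 and 0.99624). All 6 points come from the same 2 treatments, and r exceeded 0.95 for 536 genes with UGDH and 329 genes with UGT2B7.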

How the data were processed

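The authors deposited whole-number counts per gene and log2 FPKM values. The submitters' processing notes name the build hg38 and DESeq2 1.10.1; which aligner and counter they ran, and whether reads were assigned by strand, is not given here. The deposited log2 FPKM table held no pseudocount and exactly the genes with a count in all 6 libraries. Counts were tested over the whole table with edgeR 4.0.16 in R 4.3.3 (filterByExpr with a minimum count of 10, TMM, robust glmQLFit and glmQLFTest, treatment as the only term), with Benjamini-Hochberg adjusted p under 0.05 as the call. The SE is the log2 fold change over the root of F. DESeq2 1.42.0 and limma 3.58.1 served as alternatives. The fits were also run on simulated data, with far fewer changed genes than here and with changes larger than those of UGDH and UGT2B7. That run does not bear on scaling or on changes as small as those. Reads are not independent molecules, so intervals and floors cover counting error only. Replicates of a treatment differed beyond sampling noise (chi-square per degree of freedom 7.21 to 9.74), so none was a copy of another. Separate cultures and separate preparations of the same RNA cannot be told apart this way. The members and lists were chosen with earlier results of these data known. Genes are named as all members, at most 4 called genes with the smallest p and at most 2 uncalled genes with the highest level per list, and those said to be chosen later; 1 gene and 1 motif are not reported here. Symbols and sequences came from RefSeq and GENCODE v29 tables of GRCh38; RefSeq gave 7 of the 8 listed genes, and 19 of the 23 UGT family genes and UGDH, a promoter window.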

Additional observations from a re-analysis of the deposited data

How the results depend on the processing

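The rises of UGT1A1, UGT2B7 and UGDH and of the summed UGT1A and UGT2B counts kept their direction and their call under all 12 alternatives (other scalings, no filter, DESeq2, limma on the deposited log2 FPKM, the replicate block, and each library left out in turn). Their log2 fold changes ranged from 2.50 to 2.93, from 0.42 to 0.57, from 0.33 to 0.44, from 2.37 to 2.78 and from 0.26 to 0.42. For limma the 2 sums added FPKM, not counts, over the genes in the log2 FPKM table alone. Those were UGT1A1 and UGT1A6, and UGT2B4, UGT2B7, UGT2B10 and UGT2B11. UGT1A6 ranged from 0.71 to 1.28. Uncalled genes changed sign with total-count scaling, where UGT2B10 stood at 0.00959, UGT2A3 at 0.0374, HNF4A at 0.0362 and HMOX1 at 0.0303. Leaving out 1 library at a time, UGT2B10 ranged from -0.194 to 0.0331 and UGT2A3 from -0.119 to 0.00254. The replicate numbers are not said to pair the wells. Deviations of same-numbered libraries correlated at 0.194, 0.0651 and 0.173, each the best match of its library, which is a hint from the data and not the design. With the replicate block 7689 genes were called over the whole table in place of 6332, and the log2 fold changes of UGT1A1 and UGDH were 2.73 and 0.36. Among the named genes it added a call for GPI alone, at -0.09 (edgeR adjusted p = 0.0259). Genes called over the whole table numbered 5282 to 7689 across alternatives, with 3 or 4 of the members. Depth limits UGT2B4, UGT2B11, UGT2B15 and the minor UGT1A genes, each at no more than 25 counts in a library.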
